A study of Homo sapiens with 2 samples.

Results

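Metallothioneins are small cysteine-rich proteins that bind zinc and copper, and cadmium where cells meet it. Their genes are switched on by metals through the transcription factor MTF1, which binds short metal response elements near the start of transcription, and also by glucocorticoids and oxidative stress. CYBRD1 encodes a plasma membrane reductase that turns ferric into ferrous iron for uptake, and NCOA4 encodes the receptor that carries ferritin, the iron store, into autophagy (ferritinophagy). These genes were examined in A549 cells, a human lung adenocarcinoma line, after silencing of p62. The protein, encoded by SQSTM1, delivers ubiquitinated cargo to autophagosomes and, by binding KEAP1, can release the antioxidant factor NRF2.

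The members were the genes on the array whose symbol is MT1 or MT2 followed by a single letter, with CYBRD1 and NCOA4 added by name, in all 11 of 14884 named genes. The study held 2 samples, each A549 RNA on 1 Affymetrix whole-transcript array: siCONTROL, from cells that received a control siRNA, and siP62, from cells that received an siRNA directed at p62/SQSTM1. Both were grown under standard conditions, RNA was taken 24 hours after transfection with Trizol, and 100 ng of it was labelled. With 1 array per group there was no spread between replicates and no test, so every difference below is between these 2 arrays and could not be told apart from variation between cultures or arrays.

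Values are log2 signals per probe set, and a difference is the siP62 value minus the siCONTROL value. Where 2 values are given for a gene, the siCONTROL value stands first. A value under 5.35, the median of all named probe sets, was treated as low signal, and a gene was counted only where its higher value reached that limit. This kept 7896 genes (53.1%), whose median difference was 0.04 and whose robust SD (scaled median absolute deviation) was 0.22 over genes. The siRNA target SQSTM1 read 8.64 under siCONTROL and 7.30 under siP62, a difference of -1.34. Of 10 epithelial and lung markers named on the array, 6 reached the limit, among them KRT18 (11.95 and 11.97), KRT7 (8.02 and 8.09) and EPCAM (7.38 and 7.59). The lung marker SFTPB, also among the 6, reached it under siCONTROL alone (5.66 and 5.30). The epithelial marker CLDN4 (4.29 and 4.31) was low, as were the lung markers NKX2-1 (4.41 and 4.24), SFTPC (4.27 in both arrays) and NAPSA (4.57 and 4.8). The 4 endothelial markers were low. Of 3 leukocyte markers, CD14 (5.98 and 5.94) and CD68 (8.48 and 8.42) reached the limit and LYZ (3.02 and 3.06) did not. The fibroblast marker LUM reached it under siP62 alone (5.02 and 5.49), while DCN (2.18 and 2.13) and the erythroid marker EPB42 (4.88 and 4.59) were low.

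Of the 11 members, 5 reached the level limit: MT1F, MT1X, MT2A, CYBRD1 and NCOA4. MT1F was 2.01-fold higher and CYBRD1 2.08-fold lower in the siP62 array, MT1X and MT2A differed by 0.29 and 0.23, close to the robust SD of 0.22 over all kept genes, and NCOA4 had nearly the same value in both arrays. At 1.5-fold, 1 of these 5 was higher and 1 lower, where 2.08% of all kept genes were higher and 1.6% lower. At 2-fold, 1 was again higher and 1 lower, with 0.165% of all kept genes higher and 0.228% lower. The members were chosen with earlier results of these data known. Neither these counts nor the ranks of MT1F and CYBRD1 given below are therefore independent of the values. The split of all genes at 1.5-fold, 164 higher and 126 lower, became 127 and 154 after centring on the median. The other 6 members were low in both arrays. Each of the 11 members was read by 1 probe set, and the probes were not checked here against the near-identical sequences of other metallothionein genes, so a signal may hold RNA of more than its named gene.

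**Figure D1:**
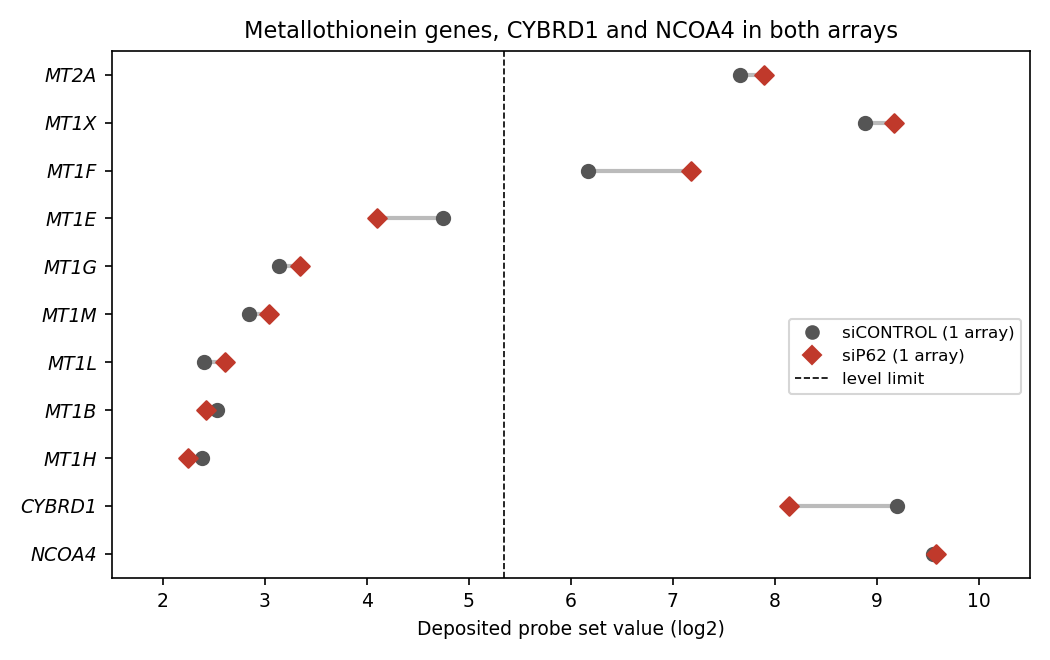
Deposited log2 value of each of the 11 members (rows) in the siCONTROL array (grey circles) and the siP62 array (red diamonds), with the level limit of 5.35 as a dashed line. MT1F moves from 6.17 to 7.18 and CYBRD1 from 9.20 to 8.14, while 6 metallothionein genes lie left of the limit in both arrays; levels of different genes rest on different probes and are not compared.

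MT1F, a metal-binding MT1 isoform, read 6.17 under siCONTROL and 7.18 under siP62, a difference of 1.01. The siP62 array was thus the higher one, with 201% of the siCONTROL level, and both values lay above the level limit. Only 12 of the 7896 kept genes had a higher difference, and none of the other genes in its bin of 394 genes of like mean level did. The robust SD of the differences in that bin was 0.22. The difference was 0.97 after centring on the median of all kept genes, which puts it just below 2-fold.

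MT1X, another MT1 isoform, read 8.88 under siCONTROL and 9.17 under siP62. The difference of 0.29, or 1.22-fold, was exceeded by 51 of the 395 genes in its level bin, whose robust SD was 0.19. MT2A, the single MT2 gene and in many cell types the main metallothionein, read 7.66 under siCONTROL and 7.89 under siP62. Its difference of 0.23, or 1.17-fold, was exceeded by 87 of the 395 genes in its bin, whose robust SD was 0.22. Both genes were higher in the siP62 array, by amounts that many genes of like level shared.

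**Figure D2:**
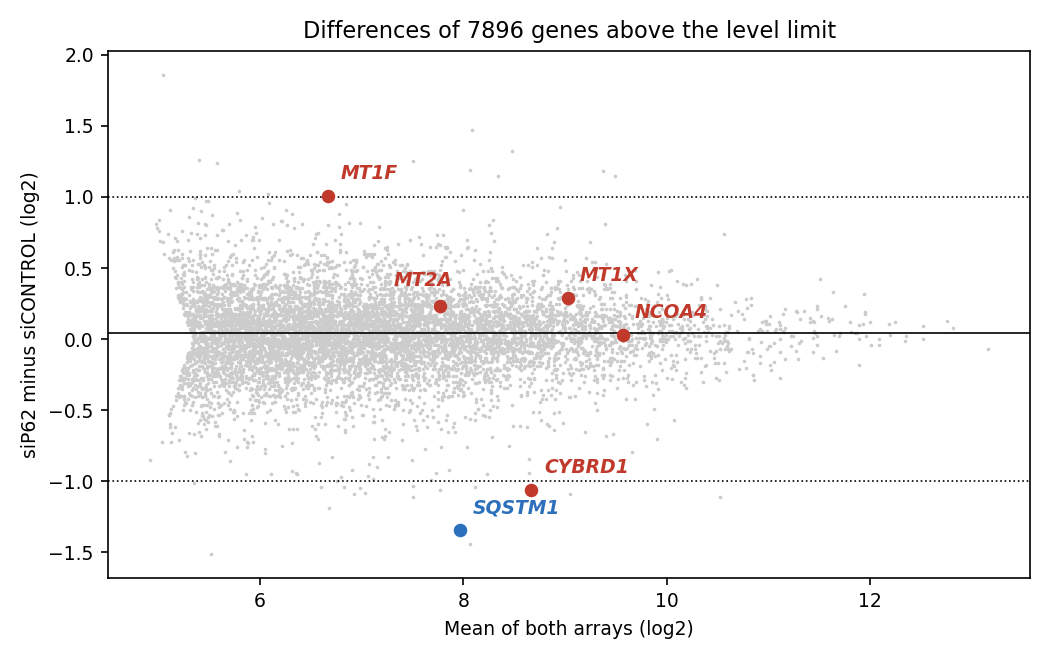
Difference between the arrays (siP62 minus siCONTROL, log2) against the mean of both arrays for the 7896 kept genes (grey), with the 5 members above the level limit in red and SQSTM1 in blue. The solid line is the median difference of 0.04 and the dotted lines mark 2-fold; MT1F (1.01) and CYBRD1 (-1.06) lie at the edges of the cloud, and MT1X, MT2A and NCOA4 within it.

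The other 6 MT1 genes were low in both arrays, with values between 2.25 and 4.75. MT1E had the largest of their differences, from 4.75 in the siCONTROL array to 4.10 in the siP62 array (-0.65), opposite in sign to that of MT1F. Of the 6 genes it alone was past 1.5-fold, on the lower side, where 2.02% of all genes below the limit were past it on the higher side and 2.75% on the lower. Among these 6988 genes, 126 (1.8%) had a difference as low or lower, and the robust SD was 0.25, so no fold is given for it. MT1G read 3.14 and 3.35, MT1M 2.85 and 3.04, and the transcribed pseudogene MT1L 2.40 and 2.61. MT1B read 2.53 and 2.42, and MT1H 2.39 and 2.25. The differences of these 5 genes ran from -0.14 to 0.21, within the robust SD of genes below the limit, so that none of them is shown to be above background or to differ.

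The metallothionein genes lie side by side on chromosome 16, and 11 of them were named on the array when the family members MT3 and MT4 are included. MT4, known from stratified squamous epithelium, read 6.68 under siCONTROL and 6.21 under siP62 (-0.47). MT3, known from brain, read 5.69 and 5.58 (-0.11). Over the cluster the differences therefore had both signs, though that of MT3 lay within the robust SD of 0.22 over all kept genes. MT3 and MT4 were also read by 1 probe set each, and their probes were not checked against other metallothionein genes. Of the 6 named genes on either side of the cluster, 9 of the 12 in all reached the level limit, with differences from -0.11 to 0.39 and a median of 0.12. BBS2, a cilium gene on the MT4 side, read 7.84 and 8.15 (0.31), and PLLP, a myelin and epithelial membrane gene on the other side, read 6.73 and 7.12 (0.39). The differences of MT1X and MT2A thus lay inside the range of their chromosomal neighbours, and those of MT1F and MT4 outside it.

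**Figure D3:**
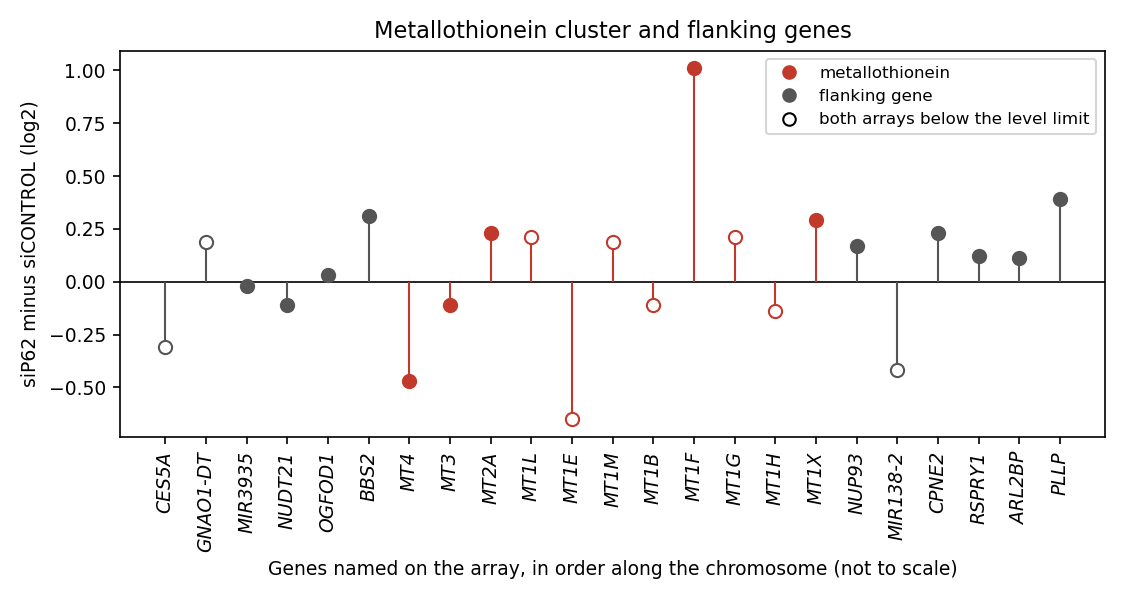
Difference between the arrays (siP62 minus siCONTROL, log2) for the metallothionein genes (red) and the 6 named genes on either side (grey), in their order along chromosome 16 in the RefSeq annotation, with open circles where both arrays lay below the level limit. MT1F (1.01) stands above its neighbours, while MT4 (-0.47) and the low MT1E (-0.65) point down.

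Promoters of the family are shown because metallothionein genes share metal response elements, and because the measured genes MT1X and MT2A can be set beside MT1B and MT1H, which were low in both arrays. RefSeq start sites (GRCh38.p14) were matched for 6 of the 11 members: MT1B, MT1H, MT1X, MT2A, CYBRD1 and NCOA4. No entry was matched for MT1F, MT1E, MT1G, MT1M and MT1L. The 250 bases before the start are printed 5′ to 3′, and capitals mark the core of the metal response element, searched on both strands as TGCGCNC and TGCACNC. The windows, all on the plus strand, are chr16:56608334-56608583 for MT2A, chr16:56682220-56682469 for MT1X, chr16:56651636-56651885 for MT1B and chr16:56669564-56669813 for MT1H.
MT2A: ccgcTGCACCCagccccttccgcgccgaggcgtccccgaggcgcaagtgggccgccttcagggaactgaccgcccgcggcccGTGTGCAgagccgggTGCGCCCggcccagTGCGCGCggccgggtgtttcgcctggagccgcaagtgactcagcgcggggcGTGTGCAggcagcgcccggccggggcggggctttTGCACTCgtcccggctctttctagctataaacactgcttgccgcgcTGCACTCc
MT1X: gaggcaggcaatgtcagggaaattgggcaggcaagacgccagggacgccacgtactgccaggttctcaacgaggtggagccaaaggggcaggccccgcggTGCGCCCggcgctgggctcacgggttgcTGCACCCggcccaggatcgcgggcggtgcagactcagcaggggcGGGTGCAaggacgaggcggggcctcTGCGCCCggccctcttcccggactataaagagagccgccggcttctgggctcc
MT1B: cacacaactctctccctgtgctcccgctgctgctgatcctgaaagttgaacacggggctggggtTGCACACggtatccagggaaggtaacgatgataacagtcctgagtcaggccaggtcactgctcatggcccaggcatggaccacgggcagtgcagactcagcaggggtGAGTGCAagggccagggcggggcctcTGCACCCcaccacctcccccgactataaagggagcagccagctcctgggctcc
MT1H: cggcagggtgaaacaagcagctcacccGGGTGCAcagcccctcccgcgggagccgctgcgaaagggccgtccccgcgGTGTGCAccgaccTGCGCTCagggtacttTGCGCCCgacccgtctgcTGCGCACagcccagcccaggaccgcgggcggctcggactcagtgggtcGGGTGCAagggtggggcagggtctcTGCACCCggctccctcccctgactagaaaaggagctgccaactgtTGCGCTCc

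The window of MT2A held 7 matches, that of MT1X 4, that of MT1B 3 and that of MT1H 8. Of 35116 windows of the same length in the RefSeq table, 24.8% held at least 1 match, 1.58% at least 3 and 0.37% at least 4. Among these 4 genes the number of matches did not separate the measured from the low ones, as MT1H held the most and MT1B the fewest. MT4, not a member but above the level limit, also held 3 matches in its window, which is not printed. MT1X, MT1B and MT1H each held a match on the same strand with its first base at -53, and MT2A at -54, counted back from the start site. A further match on the opposite strand began at -78 in MT1X and MT1H and at -79 in MT1B. The motif TATAAA, searched on the same strand and held by 6.8% of the windows, began at -30 in MT1X and MT1B and at -29 in MT2A, and these letters are not in the MT1H window. The antioxidant response element, searched on both strands as TGACNNNGC and held by 10.9% of the windows, matched once each in MT2A, MT1X and MT1B. No match overlapped another in these 4 windows. A match describes the letters only, and no binding was measured.

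**Figure D4:**
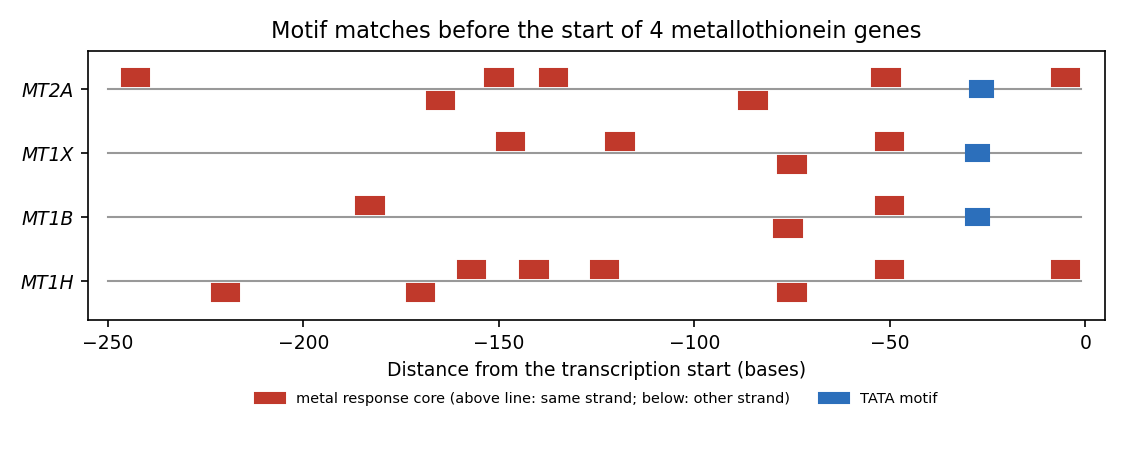
Matches to the metal response element core (red, above the line on the strand of the gene and below it on the opposite strand) and to the TATA motif (blue) in the 250 bases before the start of MT2A, MT1X, MT1B and MT1H, by distance from the start in bases. A match near -53 recurs in all 4 genes, and MT1H has no TATA match.

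CYBRD1 read 9.20 under siCONTROL and 8.14 under siP62. The siP62 array was lower by 1.06 on the log2 scale, 48.0% of the siCONTROL level. Only 9 of the 7896 kept genes had a lower difference, 1 of them in its bin of 395 genes of like level, whose robust SD was 0.19. RefSeq gives CYBRD1 2 start sites. The 250 bases before the first (chr2:171521983-171522232, plus strand) are shown for contrast with the metallothioneins.
CYBRD1: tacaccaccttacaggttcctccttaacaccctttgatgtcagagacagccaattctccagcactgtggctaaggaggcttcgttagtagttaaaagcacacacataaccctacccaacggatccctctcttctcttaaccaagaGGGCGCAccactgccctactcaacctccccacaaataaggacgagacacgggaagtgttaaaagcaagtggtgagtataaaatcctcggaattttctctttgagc

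This window held 1 match to the metal response core, on the opposite strand and marked in capitals, a number that 24.8% of all windows reached. It also held TATAAA, beginning at -30, and its GC content was 47.6%. The 4 metallothionein windows printed above ran from 62.4% (MT1B) to 73.2% (MT2A), and the match numbers were not adjusted for GC content. The window of the other CYBRD1 start site held neither motif, and TGACNNNGC was in neither CYBRD1 window. Of 5 relatives of CYBRD1 named on the array, 2 reached the level limit, and both differed by 0.10 or less in size. CYB561 read 6.46 and 6.41 (-0.05) and CYB561D2 6.0 and 5.90 (-0.10), while CYB561D1 (4.62 and 4.97), FRRS1 (5.28 and 5.33) and FRRS1L (3.72 and 3.97) were low in both arrays.

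NCOA4 read 9.55 under siCONTROL and 9.58 under siP62. The difference of 0.03 was about that of the median gene, and its sign turned to -0.01 after centring on the median. Of the other nuclear receptor coactivator genes, 5 reached the level limit, with 2 higher, 2 lower and 1 equal. NCOA7 read 7.76 and 7.40 (-0.36) and NCOA5 9.03 and 9.27 (0.24). Genes linked to NCOA4 and ferritinophagy had a median difference of -0.035 over 8 genes, 2 higher, 5 lower and 1 equal. These 8 did not all have the same role, since HERC2, described below, was among them. ATG9A, a membrane protein of early autophagosomes, read 9.05 and 8.78 (-0.27). ATG5, needed to lipidate ATG8 proteins, read 7.46 and 7.70 (0.24). HERC2, the ubiquitin ligase that targets NCOA4 in iron-rich cells, read 8.10 and 8.04 (-0.06), and the autophagy receptor TAX1BP1 9.97 and 9.86 (-0.11).

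The remaining genes were taken from 13 lists, some of metal handling and some of genes linked to the members in other ways. Among them were the coactivators, ferritinophagy genes, CYBRD1 relatives, ferroptosis genes, and glucocorticoid-induced and stress genes. Of 213 genes in these lists, 125 were named on the array and 92 reached the level limit, and the other 88 were not analysed here. Of the 92, 38 were higher, 48 lower and 6 equal, against 55.4% higher and 41.8% lower among all kept genes. Their median difference was -0.015 against 0.04, and none of the 92 differed by 1.5-fold, where 3.67% of all kept genes did. The differences ran from -0.53 to 0.55, and those of MT1F and CYBRD1 lay outside the range of these 92 genes. Among the 88 genes not analysed were the zinc transporters and the genes of ferritin, ferroportin and transferrin receptor 1. The range therefore does not cover these pathways as a whole, and the lists, like the members, were chosen with earlier results known.

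**Figure D5:**
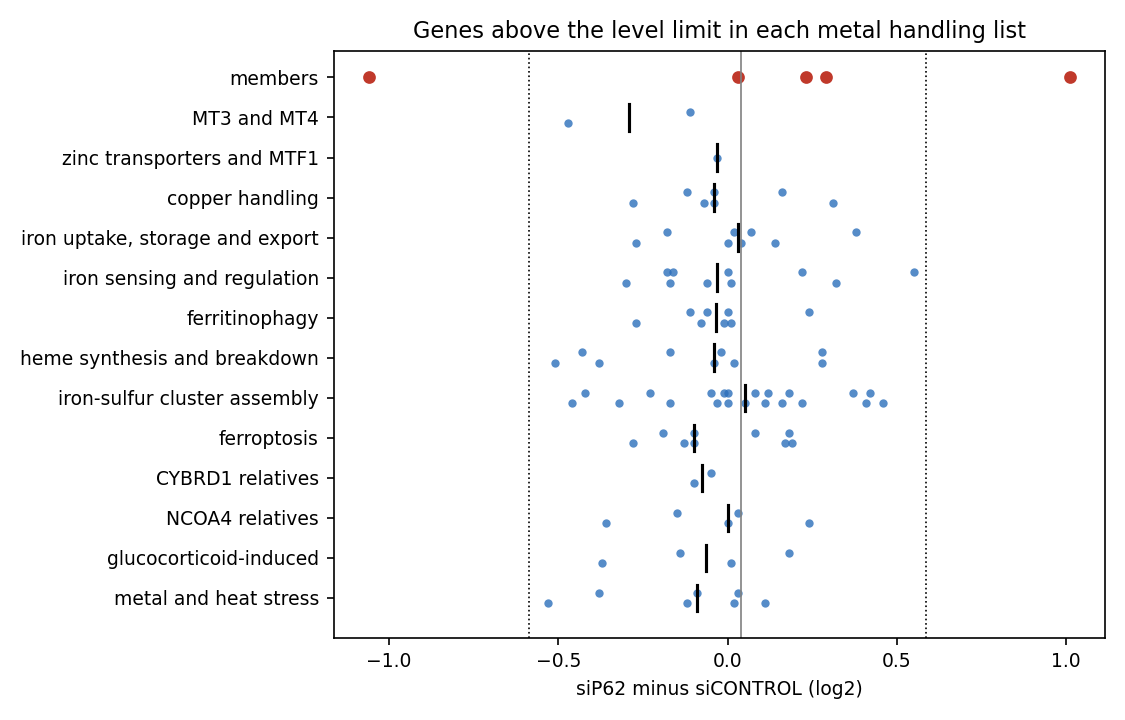
Difference between the arrays (siP62 minus siCONTROL, log2) for the kept genes of each of the 13 lists (blue points, black bar at the list median) and for the 5 members above the limit (red). Dotted lines mark 1.5-fold and the grey line the median of all kept genes, 0.04; only the members MT1F and CYBRD1 lie beyond the dotted lines.

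MTF1, the metal-sensing activator of the metallothionein genes, read 8.75 under siCONTROL and 8.72 under siP62. It was the only gene named of 25 zinc genes, the zinc transporters being not analysed here. Of 17 copper genes 11 were named on the array. They had a median difference of -0.04 over 7 kept genes, 2 higher and 5 lower. PAM, a copper-dependent enzyme that amidates peptides, read 6.83 and 7.14 (0.31), and CUTC 7.25 and 6.97 (-0.28). The copper chaperone genes ATOX1 (6.14 and 6.10) and CCS (6.34 and 6.30) each differed by -0.04.

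Glucocorticoid and stress genes share inducers with metallothioneins. Of the glucocorticoid-induced genes 4 were kept, 2 higher and 2 lower, with a median of -0.065 that turned to 0.01 without a filter. DUSP1, a MAP kinase phosphatase, read 10.65 and 10.83 (0.18), ERRFI1, an inhibitor of the EGF receptor, 9.42 and 9.05 (-0.37), and FKBP5 was low in both arrays (5.32 and 5.33). The metal and heat stress genes had a median of -0.09 over 7 kept genes, 3 higher and 4 lower. BAG3, a cochaperone of HSP70, read 8.46 and 7.93 (-0.53), and the small heat shock protein gene HSPB1 12.18 and 12.21 (0.03).

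Genes of iron uptake, storage and export had a median difference of 0.03 over 8 kept genes, 5 higher, 2 lower and 1 equal, and the median turned to -0.01 after centring on the median of all genes. Of the 29 genes listed, 18 were named on the array, and the genes of ferritin, ferroportin and transferrin receptor 1 were not analysed here. TFR2, transferrin receptor 2, read 5.23 in the siCONTROL array, below the limit, and 5.61 in the siP62 array. FLVCR1, described as a heme exporter and a choline transporter, read 8.39 and 8.12 (-0.27), and CP, the ferroxidase ceruloplasmin, 7.62 and 7.44 (-0.18). The iron chaperone genes PCBP1 (10.88 and 10.95) and PCBP2 (7.45 and 7.59) differed by 0.07 and 0.14.

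Genes of iron sensing and regulation had a median of -0.03 over 10 kept genes, 4 higher, 5 lower and 1 equal. HFE, a membrane protein that tunes hepcidin, had the highest difference of the 92 kept list genes, reading 6.44 under siCONTROL and 6.99 under siP62 (0.55, 1.46-fold). NEO1, neogenin, a receptor that binds the hepcidin regulator hemojuvelin, read 9.75 and 10.07 (0.32). EPAS1, the hypoxia factor HIF-2 alpha, which induces CYBRD1 in the gut, read 10.51 and 10.21 (-0.30). FBXL5, the iron-sensing ligase subunit that removes IRP2, read 8.10 and 7.93 (-0.17), and HAMP, the hepcidin gene, 6.23 and 6.24.

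Heme genes had a median of -0.04 over 9 kept genes, 3 higher and 6 lower. The enzymes of heme breakdown named on the array were each lower in the siP62 array. HMOX2, the constitutive heme oxygenase, read 6.51 and 6.0 (-0.51), HMOX1, the inducible one, 9.50 and 9.12 (-0.38), BLVRA, a biliverdin reductase, 8.01 and 7.58 (-0.43), and BLVRB 10.56 and 10.39 (-0.17). Of the synthesis enzymes, FECH, which inserts iron into the porphyrin ring, read 7.87 and 8.15 (0.28) and UROD 6.43 and 6.71 (0.28), whereas ALAD (6.03 and 5.99), CPOX (7.34 and 7.36) and UROS (7.12 and 7.10) differed by 0.04 or less. The split between breakdown and synthesis enzymes was chosen after the values were seen.

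Iron-sulfur cluster genes had a median of 0.05 over 21 kept genes, 11 higher, 8 lower and 2 equal. ISCU, the scaffold on which clusters are built, read 6.01 and 6.47 (0.46), and ISCA1, which acts later in the pathway, 6.60 and 6.14 (-0.46). CISD3 read 7.38 and 7.80 (0.42), and CISD1, an outer mitochondrial membrane protein with an iron-sulfur cluster, 5.69 and 5.27, the latter below the limit. MMS19, of the cytosolic targeting complex, read 7.24 and 7.65 (0.41), and NFS1, the cysteine desulfurase that supplies sulfur, 7.92 and 7.69 (-0.23). Ferroptosis genes had a median of -0.10 over 9 kept genes, 4 higher and 5 lower, and this direction depended on the filter, with 0.12 without one and -0.01 at the 70th percentile. GPX4, which reduces lipid peroxides, read 9.66 and 9.38 (-0.28), and LPCAT3, which places polyunsaturated fatty acids in phospholipids, 10.17 and 9.98 (-0.19). DHODH, a mitochondrial enzyme of pyrimidine synthesis, read 6.96 and 7.15 (0.19), and SAT1, an enzyme of polyamine breakdown, 8.96 and 9.14 (0.18).

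The kept genes whose pair of values lay nearest to those of a member were found by the Euclidean distance of the log2 values over the 2 arrays. Nearest to MT1F were THAP10 (6.27 and 7.07), NRBF2, a subunit of the autophagy PI3 kinase complex (6.34 and 7.22), and VPS33B (6.38 and 7.17), at distances from 0.149 to 0.21. Nearest to CYBRD1 were CDK6, a G1 cyclin-dependent kinase (9.12 and 8.18), IBTK (9.07 and 8.23) and IGF2R, the mannose 6-phosphate receptor (8.94 and 8.32), at distances from 0.089 to 0.316. MT1X had CDC27, DCXR and AVPI1 within 0.032, and NCOA4 had BCAP31, SCARNA22 and ABI1 within 0.02. Such nearness over 2 arrays describes level and difference together and comes from different probes.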

How the data were processed

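The deposited table held log2 values to 2 decimals for 48226 probe sets on 2 arrays, 1 siCONTROL and 1 siP62. Per the submitters' processing notes, the tools were Transcriptome Analysis Console 4.0.2.15 and RMA. RMA as commonly run makes the distributions of the arrays alike, so a shift of all genes one way would not be seen. Which arrays entered it and the genome build behind the probe sets are not stated in any source used here, and no detection call was used.

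In the supplied platform annotation 16098 probe sets carried a single gene symbol, 0 carried several and 32128 carried no name here. The gene identifiers of all 16098 probe sets matched RefSeq (GRCh38.p14), used for current names and gene order, and for promoters where a start site was matched. For a gene with several probe sets the one with the highest mean over both arrays was taken. Genes were ranked by difference within 20 bins of like mean level.

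The members and gene lists were chosen with earlier results of these data known. Named list genes were taken from those with the largest absolute differences, up to 6 a list, or because they fill a role in the pathway. Some genes with larger differences than a named one were left out, such as NDOR1 (0.37) among the iron-sulfur genes. With 1 array per group no test was run. Alternatives were median centring, a lowess curve (fraction 0.3), quantile normalization, the mean over probe sets, no filter, and a filter at the 70th percentile. Analyses used Python 3.11.15, pandas 2.3.3 and statsmodels 0.14.6, and were tested on simulated data.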

Additional observations from a re-analysis of the deposited data

How the results depend on the processing

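A difference was held to be unmoved when an alternative shifted it by less than the robust SD over all kept genes, 0.22, a list median when the shift was less than the standard error of a median of as many genes with that SD, and a count when it stayed within 1.5 times. The rule for medians was set after the data were seen. Of 152 values recomputed for 30 results, 140 were unmoved. MT1F lay between 0.969 and 1.01 and CYBRD1 between -1.108 and -1.06. The 1 member at least 2-fold higher, MT1F, became 0 members with the median difference subtracted, 0 with the lowess curve subtracted and 0 after quantile normalization. Without a filter 2 of the 11 members were at least 1.5-fold lower, MT1E being the added one, beside 318 of all 14884 genes. Counts over all genes moved with the filter. Without it 305 genes were at least 1.5-fold higher, 318 at least 1.5-fold lower and 25 at least 2-fold higher, and a limit at the 70th percentile gave 85, 82 and 8, since the number of genes counted changed. Without a filter the ferroptosis median was 0.12, against -0.10, and the iron-sulfur median was 0.12 at the 70th percentile, against 0.05. The glucocorticoid-induced median turned from -0.065 to 0.01 without a filter, but was unmoved by the rule. Some of the 140 were fixed in advance. Median centring subtracted 0.04 from every difference, too little to move any member or list median by these rules. The mean over probe sets could not change a member, as each had 1 probe set, and low members had no value on the lowess curve. No paired analysis was possible because each group held 1 array. The number of arrays limits the precision, and nothing here measures the spread between cultures.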

Other observations

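Of the genes in the 13 lists, 33 were below the level limit in both arrays and entered the list medians only where no filter was used. Among them 1 was past 1.5-fold on the higher side and 1 on the lower, where 2.02% and 2.75% of all 6988 genes below the limit were, so these counts are near the background. STEAP1, of a family of metal reductases, read 2.56 under siCONTROL and 3.26 under siP62, and HPX, which encodes the heme-binding plasma protein hemopexin, 4.72 and 4.03. SGK1, a glucocorticoid-induced kinase gene, read 4.79 and 5.31. Folds are left out, since these values are low signal in both arrays.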
